A study of Mus musculus with 2 samples.

Results

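The cullin-RING ubiquitin ligase genes examined here comprised the cullin scaffolds, their regulators, and the F-box, BTB-Kelch, other BTB, SOCS-box and DCAF adaptors. Members were chosen by gene symbol among the 4788 protein-coding genes of the deposited table, and 65 matched. The table holds only genes that the authors had called higher in the FMRP RIP, so of the 284 reference genes with such symbols the other 219 have no value here. By role, 12 were scaffolds or regulators, 13 F-box genes, 7 BTB-Kelch genes, 23 other BTB genes, 7 SOCS-box genes and 3 DCAF genes. The symbols set these groups, and a symbol does not show that a protein works with a cullin in testis.

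The libraries came from the testis of adult wild-type mice. The input library was made from RNA of the lysate, and the FMRP RIP library from RNA recovered with an antibody against FMRP. Each group had 1 library, the input library holding 30849871 reads and the other 36506932, so no difference below has a replicate check and none was tested. No control immunoprecipitation with another antibody was analysed here, and pooling of animals was not stated in the labels. Of 35 marker genes of testis cell types, the table listed only *Sycp1*, at 10.5 CPM in the input against 23.8 CPM after immunoprecipitation, so the tissue label could not be checked against its markers.

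FMRP is an RNA-binding protein that associates with polyribosomes and is known for restraining the translation of its target mRNAs. Cullin-RING ligases attach ubiquitin to other proteins: the cullin is an elongated scaffold that holds a RING protein and its ubiquitin-conjugating enzyme at its C-terminal end and an exchangeable substrate receptor at its N-terminal end. CUL1 works with SKP1 and F-box proteins, CUL3 with BTB proteins, CUL2 and CUL5 with elongins and VHL-box or SOCS-box proteins, and CUL4A and CUL4B with DDB1 and DCAF proteins. In the male germ line, cullin ligases are known for roles in meiosis and in the remodelling of spermatids.

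The level of a gene is given in CPM, its reads scaled to the total of the library. All 65 genes had a higher CPM after immunoprecipitation than before it, a direction that the authors' selection of the table had fixed. The size of the difference was measured on the log2 scale, as the FMRP RIP level over the input level with 1 CPM added to both. The median log2 ratio of the 65 genes was 1.19 with quartiles of 0.81 and 1.66, against 1.35 with quartiles of 0.92 and 2.0 over all listed genes. Without the KCTD, BTBD, ABTB, RHOBTB and KLHDC symbols, the median of the remaining 43 genes was 1.36. No ABTB or KLHDC gene was listed. Many of the genes left out have no textbook link to a cullin, but *Kctd10*, for example, is a CUL3 adaptor. Whether the median of the members lay below that of all listed genes thus rested on which symbols were counted. The counts and the sum that follow are for all 65 genes. A log2 ratio above 1 was found for 43 of 65 genes (66.2%), against 70.1% of all listed genes. At least a 1.5-fold difference on this scale was found for 62 genes (95.4%), against 97.3%, but a 1.5-fold difference was also the authors' limit for the table, so this count shows only the effect of the added 1 CPM. Both shares lay near the background, so neither is a result about the ligase genes. At the upper end, 9 members (13.8%) had a log2 ratio above 2, against 1198 listed genes (25%). Below the lower quartile of the listed genes lay 19 members (29.2%). Summed over the members, the level went from 1757 to 5082 CPM, a ratio of 2.89, against 3.89 for all listed genes.

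**Figure D1:**
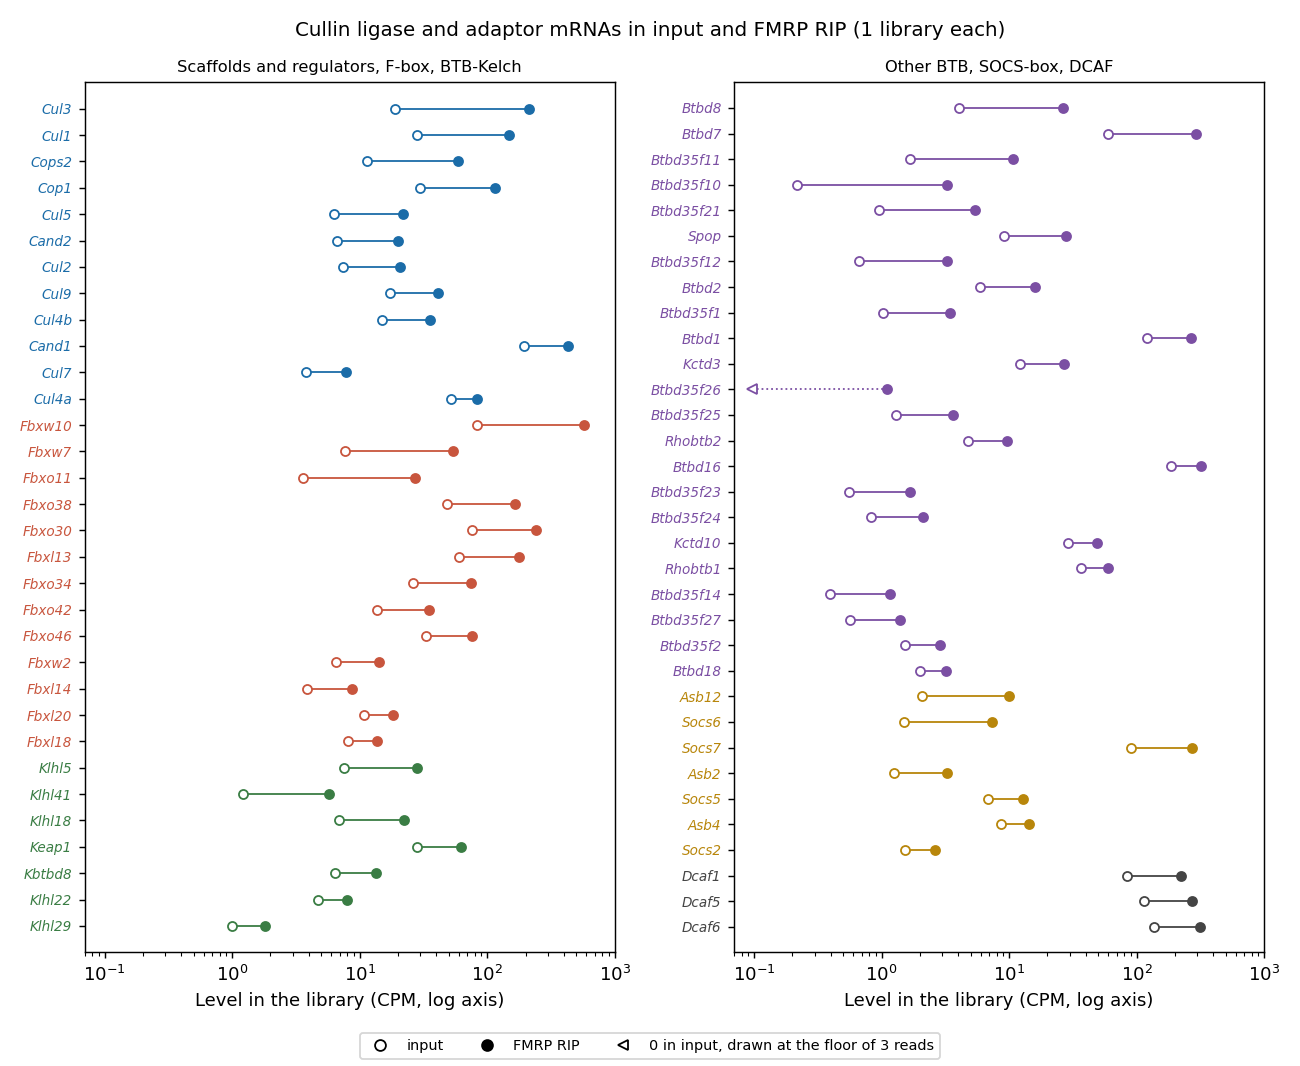
Level of each of the 65 genes before (input, open circles) and after immunoprecipitation (FMRP RIP, filled circles), in CPM on a log axis, with 1 library each and colours by group. Every filled circle lies to the right of its open circle, with *Cul3* moving from 18.9 to 212 CPM, and *Btbd35f26*, at 0 in the input, is drawn at the floor of 3 reads.

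The scale of these ratios depends on the library total. Genes of the table took 14.2% of all input reads but 55.2% of all FMRP RIP reads, so genes outside the table held a smaller share of the second library. Scaling each library by the reads on genes outside the table instead shifted all log2 ratios up by 0.94 before the pseudocount. The median of the members became 2.11, against 2.24 over all listed genes. All 65 members then had a log2 ratio above 1, as did 100% of all listed genes, so this count is no result about the members. The order of the genes and the comparison with the other listed genes were read on the library totals. In RNA from whole testis, fewer cells of a type and less RNA per cell cannot be told apart in the input level.

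The cullins themselves were all in the table: 8 of the 8 cullin genes of the reference annotation were listed, against 21.3% of all protein-coding genes there. *Cul3*, the scaffold for BTB adaptors, lies on chr1:80264923-80340480 of GRCm38 and had the highest log2 ratio of all members. It went from 18.9 CPM (584 reads) to 212 CPM (7746 reads), a CPM ratio of 11.2 with an exact 95% counting interval of 10.3 to 12.2 and a log2 ratio of 3.42, which ranked 164 of 4788. These intervals treat each read as independent and do not cover the spread between animals or immunoprecipitations. Copies made by PCR are not independent molecules, so the intervals may be too narrow even for counting error. *Cul1*, the scaffold of the SKP1 and F-box ligases (chr6:47453398-47526139), went from 28.2 to 149 CPM, a ratio of 5.26 (4.90 to 5.66) and a log2 ratio of 2.35. The ratio of *Cul3* was thus 2.13 times that of *Cul1*, and the counting intervals did not overlap.

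The other 6 cullins had lower ratios. *Cul5*, which pairs with SOCS-box receptors, went from 6.35 to 22.0 CPM, a ratio of 3.46 (2.96 to 4.07), and its interval lay below that of *Cul1*. *Cul2*, which shares the elongin adaptors with *Cul5*, went from 7.46 to 20.7 CPM, a ratio of 2.78 (2.40 to 3.24). *Cul9*, an atypical cullin that binds p53, went from 17.2 to 40.8 CPM, a ratio of 2.37 (2.15 to 2.62). From *Cul5* downwards, neighbours in this order had overlapping intervals, so no order is read between them. Overlap of separate intervals is not a test of a difference. *Cul4b*, the X-linked scaffold of the DDB1 ligases, went from 15 to 35.5 CPM, a ratio of 2.36 (2.12 to 2.63). *Cul7*, which assembles with a single F-box protein, went from 3.82 to 7.79 CPM, a ratio of 2.04 (1.64 to 2.54). *Cul4a*, the autosomal paralog of *Cul4b*, went from 51.9 to 83.7 CPM, a ratio of 1.61 (1.52 to 1.71) and a log2 ratio of 0.68, which ranked 4405 of 4788. The paralogs *Cul4a* and *Cul4b* did not overlap in their counting intervals, while *Cul7* and *Cul9*, which lie 104 kb apart on chromosome 17, did. The 8 cullins had a median log2 ratio of 1.28, against 1.35 over all listed genes. Of the 8, 6 were above 1 (75%, against 70.1% of all listed genes).

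**Figure D2:**
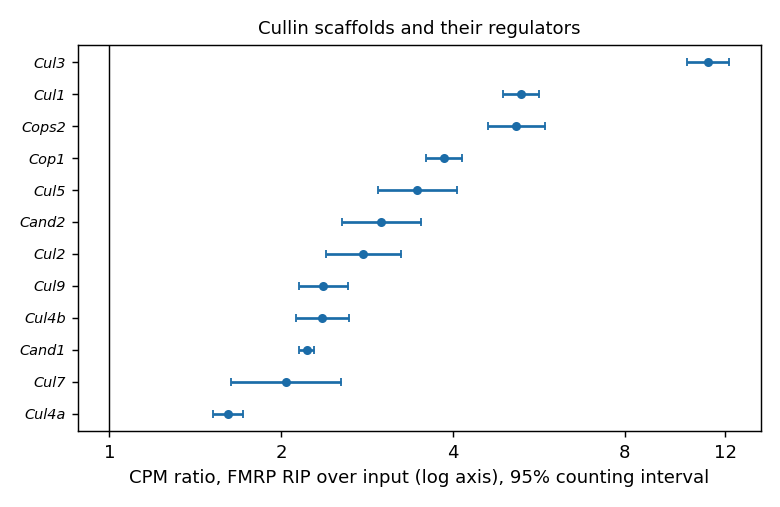
CPM ratio of FMRP RIP to input for the 12 scaffolds and regulators, on a log axis, with exact 95% counting intervals from 1 library each. *Cul3* stands at 11.2 with an interval that overlaps no other, and *Cul4a* is lowest at 1.61.

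Regulators of the cullins were listed in part. *Cand1*, the exchange factor that swaps substrate receptors on cullins, went from 194 to 431 CPM, a ratio of 2.22 (2.15 to 2.28) and a log2 ratio of 1.14. Its paralog *Cand2* went from 6.64 to 19.9 CPM, a ratio of 3.0 (2.56 to 3.51), and these intervals did not overlap. In the annotation *Cand2* shares its place with *Rpl32*, and reads of that gene could not be told apart from its own. *Cop1*, a RING ligase that also joins CUL4 complexes, went from 29.9 to 115 CPM, a ratio of 3.85 (3.59 to 4.14). The COP9 signalosome removes the ubiquitin-like protein NEDD8 from cullins, and of its 9 *Cops* genes only *Cops2* was listed. *Cops2* went from 11.4 to 58.9 CPM, a ratio of 5.16 (4.61 to 5.79) and a log2 ratio of 2.27. The adaptor genes *Skp1* and *Ddb1*, which link F-box and DCAF proteins to their cullins, were not in the table, and an unlisted gene has no value here. The scaffolds and regulators together had a median log2 ratio of 1.41, with 10 of 12 above 1 (83.3%, against 70.1% of all listed genes).

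Among the F-box genes, the substrate receptors of CUL1, 13 of 80 reference genes were listed (16.2%, against 21.3% of all protein-coding genes). Counted in the 80 is the pseudogene *Fbxl12os*. Their median log2 ratio was 1.47, and 10 of 13 were above 1 (76.9%, against 70.1% of all listed genes). Their summed CPM ratio was 3.88, which rests on *Fbxw10* and was 3.04 without it. The 3 highest had counting intervals above those of the remaining 10. *Fbxw10* (chr11:62847069-62877465) went from 83.9 to 575 CPM, a ratio of 6.85 (6.58 to 7.14) and a log2 ratio of 2.76, and had the most CPM of all members in the FMRP RIP. *Fbxw7* (chr3:84815268-84979198), the receptor for cyclin E, MYC and NOTCH proteins, went from 7.71 to 53.5 CPM, a ratio of 6.94 (6.06 to 7.97). *Fbxo11* (chr17:87990859-88065291), a receptor for BCL6, went from 3.60 to 27.4 CPM, a ratio of 7.61 (6.25 to 9.35). The intervals of these 3 overlapped in sequence, so no order is read among them, and each lay above the interval of *Cul1*. The other 10 F-box intervals lay below that of *Cul1*.

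The F-box symbols fell into 3 classes by the domain that binds the substrate. The *Fbxw* genes carry WD40 repeats, and their 3 listed members had a median log2 ratio of 2.65. *Fbxw2* was the lowest of them, going from 6.51 to 14.1 CPM, a ratio of 2.16 (1.83 to 2.56). None of the 16 reference genes *Fbxw13* to *Fbxw28* was listed. The *Fbxo* genes have other domains, and their 6 listed members had log2 ratios from 1.16 to 2.63 with a median of 1.57. *Fbxo30*, for example, went from 76.1 to 244 CPM, *Fbxo38* from 48.2 to 165 CPM, and *Fbxo42*, a receptor known to bind p53, from 13.8 to 35.2 CPM. The *Fbxl* genes carry leucine-rich repeats, and the median of their 4 listed members was 0.84. *Fbxl13*, which is also known as a subunit of the dynein regulatory complex of the flagellum, was the exception above 1 and went from 59.8 to 177 CPM, a ratio of 2.97 (2.82 to 3.13) and a log2 ratio of 1.55. *Fbxl14*, a receptor for the transcription factor SNAIL, went from 3.89 to 8.71 CPM, a log2 ratio of 0.99. *Fbxl18* went from 8.11 to 13.6 CPM and *Fbxl20* from 10.9 to 18.1 CPM, both at a log2 ratio of 0.68. With 3 to 6 genes in a class, the difference between classes is a description.

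**Figure D3:**
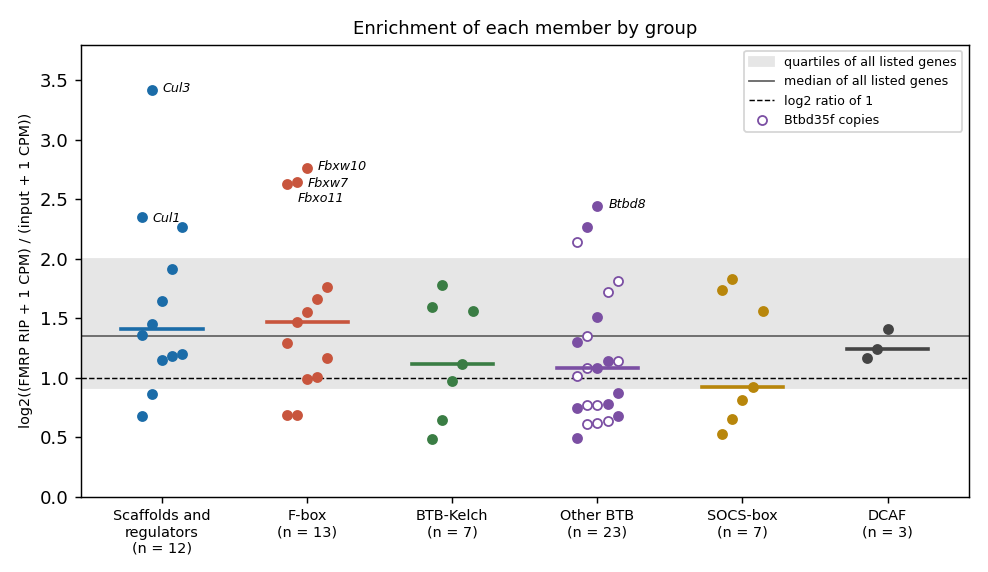
Log2 of FMRP RIP over input, each with 1 CPM added, for the 65 genes by group; bars are group medians, the band spans the quartiles of all listed genes (0.92 to 2.0) and the solid line their median (1.35). With 1 CPM added, group medians lie between 0.92 for SOCS-box genes and 1.47 for F-box genes, an order that turns with no pseudocount, with *Cul3* highest at 3.42.

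BTB-Kelch proteins join CUL3 through their BTB domain and hold the substrate with a Kelch propeller. Of 51 reference genes, 7 were listed (13.7%, against 21.3% of all protein-coding genes). Counted in the 51 is the non-coding gene *Kbtbd8os*. The 7 listed genes had a median log2 ratio of 1.12, with 4 above 1 (57.1%, against 70.1% of all listed genes). *Klhl5* went from 7.52 to 28.3 CPM, a ratio of 3.77 (3.26 to 4.36) and a log2 ratio of 1.78. *Klhl41*, known from skeletal muscle, went from 1.23 to 5.73 CPM, a ratio of 4.67 (3.28 to 6.75), a wide interval that rests on 37.8 input reads. *Klhl18* went from 6.90 to 22.4 CPM, a ratio of 3.24 (2.78 to 3.78). *Keap1*, the sensor of oxidative stress that targets NRF2, went from 28.2 to 62.3 CPM, a ratio of 2.21 (2.04 to 2.39). The lower end held *Kbtbd8*, from 6.42 to 13.5 CPM with a log2 ratio of 0.97, and *Klhl22*, a receptor with roles in mitosis, from 4.73 to 7.97 CPM with a log2 ratio of 0.65. *Klhl29* had the lowest log2 ratio of all 65 members, 0.49, going from 1.0 to 1.81 CPM, with a CPM ratio of 1.80 (1.16 to 2.85) from 31 and 66 reads.

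The other BTB genes are more mixed, and for many of them no link to a cullin is textbook knowledge. Outside the *Btbd35f* copies described next, 11 were listed with a median log2 ratio of 1.09. Of these 11, 6 were above 1 (54.5%, against 70.1% of all listed genes). *Btbd8* (chr5:107437997-107511207) went from 4.07 to 26.5 CPM, a ratio of 6.52 (5.39 to 7.89) and a log2 ratio of 2.44. *Btbd7* (chr12:102780797-102878471), known from the branching of epithelia, went from 59.3 to 290 CPM, a ratio of 4.89 (4.65 to 5.14) and a log2 ratio of 2.27. *Spop*, the best known CUL3 receptor of the MATH-BTB type, went from 9.21 to 28.1 CPM, a ratio of 3.05 (2.67 to 3.49). *Btbd1* and *Btbd2*, a pair of paralogs, had ratios of 2.22 (2.13 to 2.3) and 2.70 (2.28 to 3.20) that overlapped. The genes at the lower end included the atypical GTPases *Rhobtb1*, from 36.6 to 59.2 CPM, and *Rhobtb2*, from 4.77 to 9.56 CPM, whose intervals also overlapped. *Btbd16* went from 185 to 318 CPM, a ratio of 1.72 (1.66 to 1.77), and *Kctd10*, a CUL3 adaptor for RHOB, from 28.9 to 49.0 CPM, a ratio of 1.70 (1.56 to 1.84). *Btbd18*, a nuclear protein needed for pachytene piRNA production in spermatocytes, went from 2.01 to 3.23 CPM, a ratio of 1.61 (1.17 to 2.22), the lowest CPM ratio of the 64 members that have one.

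The *Btbd35f* genes form a multicopy family on the X chromosome. Of the 30 reference copies, 12 were listed (40.0%, against 21.3% of all protein-coding genes). Their genes are short, spanning 1.70 to 1.96 kb each. The copies resemble one another closely, and the strip of sequence just before the start of *Btbd35f21*, a listed copy, is shown because it recurs before 8 other copies. The RefSeq promoter table of GRCm38.p6 covered 9 copies, of which only *Btbd35f21* was among the listed ones. In the following lines, read 5′ to 3′ on the strand of the gene, capitals mark bases that differ from *Btbd35f21* over the 72 bases at chrX:32726037-32726108 (plus strand), chrX:33657068-33657139 (plus strand), chrX:4196504-4196575 (plus strand) and chrX:33956626-33956697 (minus strand), in that order.
Btbd35f21: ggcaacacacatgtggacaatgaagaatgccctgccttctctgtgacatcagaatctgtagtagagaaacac
Btbd35f13: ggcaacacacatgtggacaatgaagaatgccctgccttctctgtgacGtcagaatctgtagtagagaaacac
Btbd35f28: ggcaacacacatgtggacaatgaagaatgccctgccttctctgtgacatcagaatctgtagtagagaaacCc
Btbd35f6: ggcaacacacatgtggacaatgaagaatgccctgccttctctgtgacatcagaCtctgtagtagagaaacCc
Across the 8 other copies this strip had 0 to 2 differences, counted over 69 bases where the window of the table ended early. The transcribed sequences of the copies were not compared here.

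All 12 listed *Btbd35f* copies had read numbers that were not whole, against 18 of the other 53 members. How the authors divided reads that fit several genes is not given in the sources used here, so the value of a single copy is uncertain. Together the 12 listed copies went from 9.68 to 40.1 CPM, a ratio of 4.15, while the median of their log2 ratios was 1.05. The sum leaves out the 18 copies that were not listed, so it describes the selected copies and not the family. At levels this small the added 1 CPM makes the log2 ratio understate the CPM ratio. *Btbd35f11* had the highest log2 ratio of the copies, 2.14, going from 1.66 to 10.7 CPM. *Btbd35f10* went from 0.216 to 3.27 CPM, a ratio of 15.2 with an interval of 6.76 to 36.5 that rests on 6.66 input reads. *Btbd35f26* had no input read and 1.11 CPM in the FMRP RIP, at least 11.4-fold above the floor of 3 input reads (0.0972 CPM), while the exact 95% lower limit of its ratio, which also counts the error of the FMRP RIP reads, was 8.98. The lowest copies were *Btbd35f2*, from 1.53 to 2.88 CPM with a log2 ratio of 0.61, and *Btbd35f27*, from 0.562 to 1.39 CPM with a log2 ratio of 0.62. The remaining copies had log2 ratios from 0.64 to 1.72. *Btbd35f24* is a pseudogene in the RefSeq annotation although the table calls it protein-coding.

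SOCS-box proteins are receptors that reach CUL5 or CUL2 through elongins B and C. Of 30 reference genes, 7 were listed (23.3%, against 21.3% of all protein-coding genes). Of the 7, 3 had a log2 ratio above 1 (42.9%, against 70.1% of all listed genes). The median log2 ratio of the 7 was 0.92. It was the lowest of the 6 groups with 1 CPM added, but with no pseudocount it was 1.38, above BTB-Kelch (1.14) and DCAF genes (1.25). *Asb12* went from 2.07 to 9.92 CPM, a ratio of 4.78 (3.66 to 6.34), and *Socs6*, an adaptor of receptor tyrosine kinase signalling, from 1.49 to 7.31 CPM, a ratio of 4.90 (3.58 to 6.86). *Socs7* went from 91.0 to 271 CPM, a ratio of 2.98 (2.86 to 3.11) that lay below the interval of *Socs6*. *Socs5*, an inhibitor of cytokine signalling, went from 6.87 to 12.8 CPM, *Asb2*, a receptor for filamins, from 1.26 to 3.29 CPM, and *Asb4* from 8.65 to 14.2 CPM. *Socs2*, the inhibitor of growth hormone receptor signalling, went from 1.52 to 2.65 CPM with a log2 ratio of 0.53. By family, 4 of 7 *Socs* genes were listed, 3 of 19 *Asb* genes and none of the 4 *Spsb* genes. Counted in the 19 and in the 30 is the non-coding gene *Asb17os*.

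DCAF proteins are the WD40 receptors of the CUL4 and DDB1 ligases. The 3 listed of 15 reference genes (20%, against 21.3% of all protein-coding genes) had log2 ratios from 1.17 to 1.41. *Dcaf1*, the receptor hijacked by the Vpr protein of immunodeficiency viruses, went from 83.8 to 224 CPM, a ratio of 2.67 (2.56 to 2.80). *Dcaf5* went from 115 to 272 CPM, a ratio of 2.38 (2.29 to 2.47), below *Dcaf1* by the counting intervals. *Dcaf6*, which also binds nuclear receptors, went from 138 to 311 CPM, a ratio of 2.26 (2.18 to 2.34) that overlapped that of *Dcaf5*.

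Scaffold and receptors were then set side by side. *Cul3* had a CPM ratio of 11.2, and of the 29 BTB genes with a ratio, 28 had intervals wholly below that of *Cul3*. The exception was *Btbd35f10*. Since *Cul3* was the highest member by log2 ratio, this count was nearly fixed beforehand and is no result about receptors. The 29 genes also include low *Btbd35f* copies and genes with no textbook link to a cullin. The ratio of *Cul3* was 3.68 times that of *Spop* and 5.07 times that of *Keap1*. *Cul1* lay within the range of its F-box receptors, with 3 intervals above and 10 below. The interval of *Cul5* overlapped those of 4 of the 7 SOCS-box genes and lay above the other 3. That of *Cul2* overlapped 3 of them, with 2 above it and 2 below. The order was the opposite for *Cul4a*, whose interval lay below those of all 3 DCAF genes, while that of *Cul4b* overlapped all 3. These are comparisons of 1 pair of libraries, and no interval here includes biological spread.

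Genes that work with cullins but lie outside the symbol rule were examined as a list of 56 partners. The table held 14 of them (25%, against 21.3% of all protein-coding genes), with a median log2 ratio of 1.25. Of these 14, 10 were above 1, against 70.1% of all listed genes. *Usp15*, a deubiquitinase that associates with the COP9 signalosome, was the highest, going from 57.4 to 568 CPM, a ratio of 9.90 (9.43 to 10.4) and a log2 ratio of 3.28. *Fem1c*, a CUL2 receptor that reads the C-terminal ends of proteins, went from 89.7 to 443 CPM with a log2 ratio of 2.29. Its paralog *Fem1b* went from 141 to 339 CPM, and *Fem1a* had a log2 ratio of 0.81. *Eloa*, the elongin A subunit that forms a CUL5 receptor, went from 23.2 to 105 CPM with a log2 ratio of 2.12. The RING proteins *Rbx1* and *Rnf7*, the modifier *Nedd8* and the elongins *Elob* and *Eloc* were not in the table. The lowest listed partner was *Dcun1d1*, which promotes the attachment of NEDD8 to cullins, at a log2 ratio of 0.70.

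Whether a gene was listed differed widely between families. By symbol, 65 of 284 reference genes were listed (22.9%), close to the 21.3% of all protein-coding genes. The 284 include non-coding genes and pseudogenes, and of the 278 protein-coding ones 64 were listed (23%). All 8 *Cul* and both *Cand* genes were listed, but 1 of 9 *Cops*, 2 of 22 *Kctd*, 5 of 37 *Klhl* and none of 10 *Klhdc* genes. The genes of the rule that were listed spanned a median of 36.3 kb in the genome, against 17.9 kb for those not listed, and over all protein-coding genes the medians were 48.7 and 12.5 kb. Without the *Btbd35f* copies the family medians were 44.6 and 20.2 kb. The part of gene span in being listed was not tested, and transcript lengths were not used here.

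**Figure D4:**
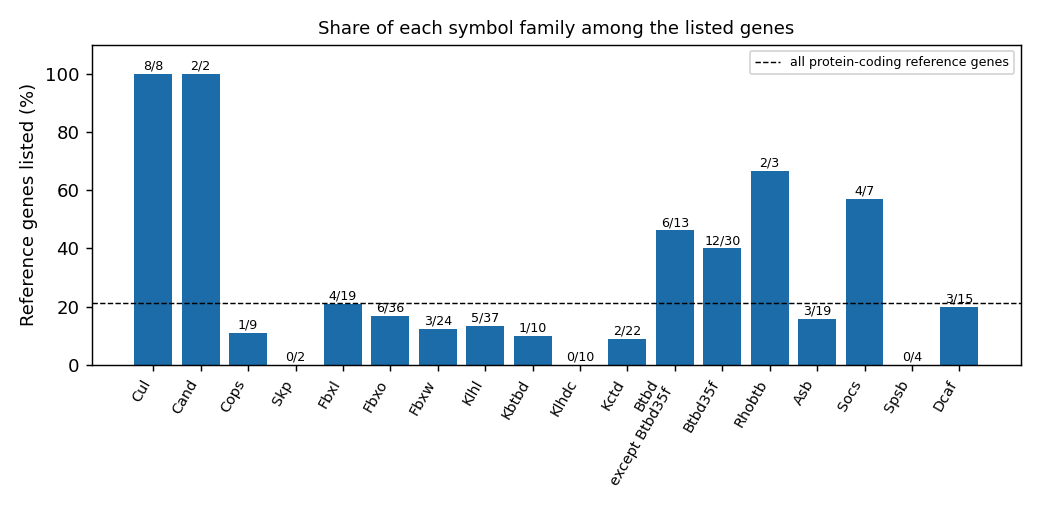
Share of reference genes of each symbol family that are in the deposited table, in percent, with listed over reference genes above the bars; the dashed line marks the 21.3% of all protein-coding reference genes. The *Cul* and *Cand* families are listed in full, whereas *Skp*, *Klhdc* and *Spsb* have no listed gene.

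The input level also moved with the log2 ratio, in part through the added 1 CPM. Members under 1 CPM in the input had a median log2 ratio of 0.92 (8 genes, all of them *Btbd35f* copies), those from 1 to 10 CPM 1.08 (30 genes), those from 10 to 100 CPM 1.44 (22 genes), and those of at least 100 CPM 1.14 (5 genes). Over all listed genes the medians in the same ranges were 1.0, 1.29, 1.54 and 1.56. In each range the median of the members was the lower one, with no test made of the difference. The members lay on 17 chromosomes, and 14 of them were on the X, where 12 were *Btbd35f* copies and the other two were *Cul4b* and *Asb12*. Another annotated gene overlapped 25 members, and since counting by strand is not stated in the sources used here, reads of the overlapping genes could not be told apart from theirs. *Fbxo11*, for example, overlaps *Msh6*, *Cops2* overlaps *Galk2*, and *Cand2* overlaps *Rpl32*.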

How the data were processed

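Testis of adult wild-type mice gave 1 input and 1 FMRP RIP library, grouped by their labels. The submitters' processing notes name STAR and GRCm38 (mm10); the counting tool is not given in the sources used here. The authors deposited CPM per gene for genes they had called higher in the FMRP RIP. Their own comparison, made with edgeR, fills the other columns (fold changes, p-values, adjusted p-values), which were not used.

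The deposited CPM were multiples of 0.01 read, which gave the library totals of 30849871 and 36506932 reads. Of the values above 0, 78.4% and 78.8% were whole reads within 0.005 read. No count test was run, because each group had 1 library. The log2 ratio of CPM plus 1 CPM was described without a test, counted above 1 and at 1.5-fold or more. Exact Clopper-Pearson intervals (95%) used rounded reads, and a floor of 3 reads equals 0.0972 CPM (input) or 0.0822 CPM (FMRP RIP). Scripts were tested on simulated data.

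Members and lists were chosen with earlier results of these data known. All scaffolds and regulators were named, with the 5 highest and 5 lowest members, the 3 highest and lowest of each adaptor group, and the 5 with most CPM in the FMRP RIP; other members named are examples. Of the listed genes, 4735 matched the RefSeq table of GRCm38.p6 by symbol or synonym. All 65 members overlapped their RefSeq gene there, but the spans can differ. *Socs6*, for example, spanned 262 kb in the deposited table and 29.2 kb in RefSeq. The RefSeq promoter table held 45 of the members. Alternatives changed the pseudocount, the filter, the scaling, the membership and the reference. Intervals were made with scipy 1.17.1, tables with pandas 2.3.3 and numpy 2.4.6, and plots with matplotlib 3.10.9, under Python 3.11.15.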

Additional observations from a re-analysis of the deposited data

How the results depend on the processing

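The median log2 ratio of the members was 0.94 with 5 CPM added, 1.39 with less than 1 CPM added (the smaller pseudocount) and 1.43 with none (64 genes above 0 in both libraries), against 1.04, 1.57 and 1.61 over all listed genes. With the libraries scaled by reads on genes outside the table it was 2.11 against 2.24. The count above 1 went from 43 to 65, with 100% of all listed genes then above 1. Without the KCTD, BTBD, ABTB, RHOBTB and KLHDC symbols, 43 members had a median of 1.36 against 1.35 over all listed genes. Of these 43, 41 were at 1.5-fold or more (95.3%, against 97.3% of all listed genes). In 2 alternatives chosen after seeing the data, the median was 1.24 without the *Btbd35f* copies (53 members) and 1.29 for 35 members with whole reads. Of these 35, 24 were above 1 (68.6%, against 70.1% of all listed genes). At 1.5-fold or more were 33 of them (94.3% against 97.3%). The count above 1 was 32 with 5 CPM added (49.2%, against 51.7% of all listed genes). It was 51 with the smaller pseudocount (78.5% against 79.7%) or with none (79.7% against 81.2%). At a minimum of 1 CPM in both libraries it was 39 of 57 (68.4% against 72.7%). These shares moved along with those of all listed genes. Of 229 alternative values of named members and group medians, 86 moved by more than the counting interval (for groups, that of the summed reads) and 45 of these did so under the scaling; no direction could turn, since every listed gene was higher in the FMRP RIP. The order of the groups turned: with no pseudocount BTB-Kelch genes were lowest (1.14) and scaffolds and regulators highest (1.53, F-box 1.5), as with the smaller pseudocount (1.14, 1.51 and 1.5). The share of family genes listed was 23.0% among protein-coding genes only, against 21.3% of all protein-coding genes.

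No paired analysis was possible because there is 1 library a group. Leaving out a replicate could not be done for the same reason. Depth limits the low members: *Klhl29* rests on 31 input reads and *Btbd35f10* on 6.66. Genes lower in the FMRP RIP and unlisted genes have no value here, so a family's share describes the authors' selection. Antibody background was not measured in the libraries used here.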
